A study of Mus musculus with 3 samples.

Results

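The genes described here form a set of 9 that carry, store, release and oxidise fatty acids: *Cpt1a*, *Acadm*, *Acadl*, *Hadha*, *Plin2*, *Fabp5*, *Lpl*, *Angptl4* and *Mgll*. They were chosen by name as genes of fatty acid handling and ketogenesis, and all 9 were found among the 24698 genes of the merged count table. No enzyme that makes ketone bodies is among them, so the set is treated as a set of fatty acid handling genes and ketone body genes are given separately. The levels were read in an in vitro Leydig cell differentiation time course profiled by Drop-seq, a droplet method that counts each transcript molecule by its unique molecular identifier (UMI). Sorted Sca1+/cKit- testis cells of adult C57BL/6 males aged 8 to 12 weeks were seeded on Matrigel at 100000 cells per well, recovered for 18 hours in serum and expanded for 3 days with PdgfAA, PdgfBB and Fgf2, each at 10 ng/ml, and the hedgehog agonist SAG at 0.5 uM. Differentiation medium then added 5 mM LiCl2 and the Notch pathway inhibitor DAPT at 10 uM. Cells were collected on days 4, 7 and 14, that is, after about 0, 3 and 10 days in differentiation medium. Time and medium therefore changed together and cannot be told apart. Cell density at collection is not given in the sources used here, and any change in it cannot be told apart from them either.

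Fatty acids reach a cell partly through lipoprotein lipase (*Lpl*), which frees them from circulating triglyceride and which is inhibited by *Angptl4*. Inside the cell *Fabp5* binds them, *Plin2* coats the lipid droplets in which they are stored as triglyceride, and *Mgll* hydrolyses monoacylglycerols, the last step of triglyceride breakdown and the main route by which the endocannabinoid 2-arachidonoylglycerol is removed. *Cpt1a* gates the entry of long-chain fatty acids into mitochondria, *Acadm* and *Acadl* start each round of beta-oxidation on medium-chain and long-chain acyl-CoA, and *Hadha* is the alpha subunit of the trifunctional protein that completes the round for long chains. Leydig cells, the steroid-making cells of the testis, keep lipid droplets and begin steroid synthesis from cholesterol in their mitochondria.

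All 9 genes are protein coding on GRCm38 in the GENCODE M21 annotation. *Cpt1a* lies at chr19:3322334-3385733 on the plus strand, *Acadm* at chr3:153922357-153944632, *Acadl* at chr1:66830839-66863277 and *Hadha* at chr5:30118304-30155162 on the minus strand. *Lpl* lies at chr8:68880491-68907448 and *Fabp5* at chr3:10012548-10016607 on the plus strand, *Angptl4* at chr17:33773750-33781830 and *Plin2* at chr4:86648386-86670060 on the minus strand, and *Mgll* at chr6:88724412-88828360 on the plus strand. *Acadl*, *Hadha* and *Mgll* overlap annotated genes on the opposite strand (for *Hadha*, *Garem2*), and whether counting used strand is not given in the sources used here. *Fabp5l2*, a near copy of *Fabp5*, is also in the count table, so the counts of *Fabp5* are uncertain to the extent that reads were split between them.

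RefSeq (GRCm38.p6) gave the sequence before the transcription start for 6 of the 9 genes, not for *Fabp5*, *Lpl* or *Angptl4*. The 250 bases before the start are shown, on the coding strand, for the acyl-CoA dehydrogenase genes and *Cpt1a*, whose levels were higher on day 14 than on day 4, and for *Mgll*, the member with the widest range of levels. Capitals mark matches, on either strand, to AGGTCA (the core sequence bound by nuclear receptors such as the PPARs), GGGCGG (the GC box), CCAAT or TATAAA, and the matches shown do not overlap each other.
Cpt1a, chr19:3323051-3323300, plus strand: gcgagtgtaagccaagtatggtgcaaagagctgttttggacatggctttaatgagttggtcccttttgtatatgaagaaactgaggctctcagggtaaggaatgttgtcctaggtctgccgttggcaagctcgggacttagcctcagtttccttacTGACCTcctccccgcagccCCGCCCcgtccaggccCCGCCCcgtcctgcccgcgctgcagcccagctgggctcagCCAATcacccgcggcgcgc
Acadm, chr3:153944644-153944893, minus strand: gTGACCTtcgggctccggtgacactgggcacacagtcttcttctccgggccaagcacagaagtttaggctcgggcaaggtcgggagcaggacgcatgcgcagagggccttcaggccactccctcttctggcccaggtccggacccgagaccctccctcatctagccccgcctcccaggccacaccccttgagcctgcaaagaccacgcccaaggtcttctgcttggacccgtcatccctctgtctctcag
Acadl, chr1:66863310-66863559, minus strand: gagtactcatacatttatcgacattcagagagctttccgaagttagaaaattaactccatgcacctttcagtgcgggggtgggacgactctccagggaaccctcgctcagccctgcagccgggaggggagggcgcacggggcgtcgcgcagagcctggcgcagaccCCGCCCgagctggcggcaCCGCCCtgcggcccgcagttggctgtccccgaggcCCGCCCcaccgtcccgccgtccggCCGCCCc
Mgll, chr6:88724162-88724411, plus strand: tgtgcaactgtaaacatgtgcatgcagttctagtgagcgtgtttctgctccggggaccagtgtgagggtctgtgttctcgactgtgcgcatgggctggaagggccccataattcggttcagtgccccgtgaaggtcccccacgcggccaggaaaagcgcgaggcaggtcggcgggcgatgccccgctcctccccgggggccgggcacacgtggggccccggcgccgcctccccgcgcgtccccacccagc
AGGTCA, read on the opposite strand as TGACCT, was found 94 bases before the start of *Cpt1a* and 249 before that of *Acadm*, and also 218 before that of *Plin2*. The *Acadl* window held 4 matches to GGGCGG, and the *Mgll* window shown none of the 4 motifs. A second *Mgll* window, at another start, held GGGCGG on the opposite strand 121 bases before that start. Of 27025 promoter windows of the same length, 13.8% held AGGTCA, 32.9% GGGCGG, 34.5% CCAAT and 13.0% TATAAA, so each match is a description and not a binding site.

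The libraries of days 4, 7 and 14 held 2980, 2171 and 973 cells with 12677110, 11627440 and 5324400 UMIs in all, and a median of 2886.5, 3285 and 3272 UMIs per cell. There was 1 library per day, so no test between days or between cell states was possible, and the intervals below (95%, exact) cover counting error only and not differences between cultures. Levels are given as CPM, the UMIs of a gene for every 1000000 UMIs of all genes in the cells summed. No barcode was shared between libraries. The Leydig cell gene *Cyp17a1* stood at 0.158, 2.32 and 856 CPM on days 4, 7 and 14, *Cyp11a1* at 19.5, 56.8 and 2089 CPM, and the smooth muscle actin gene *Acta2* at 3162, 2831 and 97.1 CPM. The summed level of 10 macrophage markers was 11.4, 28.6 and 245 CPM, that of the 5 adipocyte markers measured 4.02, 4.30 and 14.1 CPM, of 10 endothelial markers 21.3, 17.0 and 15.0 CPM, of 5 Sertoli cell markers 51.5, 49.1 and 52.0 CPM and of 6 germ cell markers 116, 19.2 and 39.1 CPM. *Adipoq*, which defines adipocytes, had 2, 1 and 0 UMIs.

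By day of culture, the 9 genes followed different courses. The acyl-CoA dehydrogenase *Acadl* was higher on day 14 than on day 4, *Fabp5* and *Lpl* were lower from day 7 on, and *Angptl4* and *Mgll* were high on day 7 and low again on day 14. A gene was called different where its CPM differed at least 2-fold with at least 20 UMIs in the compared libraries together. Between day 7 and day 4, 2 of the 9 genes were called higher and 2 lower, beside 5.39% and 4.33% of 12954 genes tested. Between day 14 and day 7, 0 were called higher and 3 lower, beside 12.4% and 16.6% of 12656 genes. Between day 14 and day 4, 1 was called higher and 3 lower, beside 16.3% and 17.6% of 12712 genes. The median log2 ratio of the 9 genes was 0.16, -0.22 and -0.02 in these comparisons, that of all genes tested 0.09, -0.13 and -0.05. The comparisons share libraries in pairs, and in the sum over a library fewer cells of a type and less RNA per cell cannot be told apart.

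**Figure D1:**
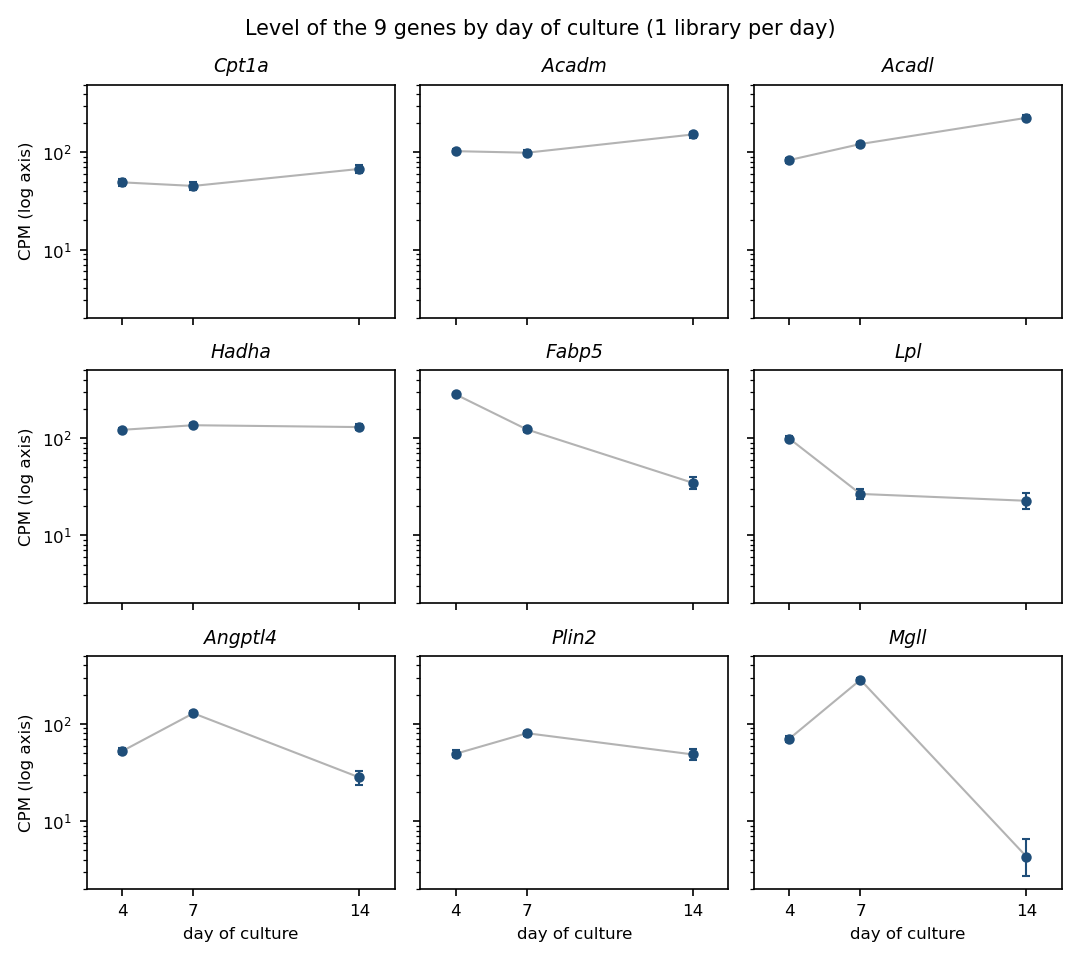
CPM of each of the 9 genes (vertical axis, logarithmic) by day of culture (horizontal axis), 1 library per day. Points are the level over all cells of a library, bars the exact Poisson interval for counting error, and grey lines join the days. *Mgll* went from 70.5 to 285 and then 4.32 CPM, while *Hadha* stayed between 122 and 136 CPM.

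Among the oxidation enzymes, *Acadl* (long-chain acyl-CoA dehydrogenase) stood at 83.4 CPM (78.4 to 88.6) on day 4, 122 (115 to 128) on day 7 and 227 (215 to 241) on day 14. Each day was above the one before it beyond counting error, and day 14 was 2.73-fold above day 4 (2.51 to 2.97). Between day 14 and day 7 the ratio was 1.87 (1.73 to 2.02), which passed 2-fold (a log2 ratio of 1.03) once ratios were centred on the median of all genes, -0.13. *Acadm* (medium-chain acyl-CoA dehydrogenase) stood at 103 CPM (97.7 to 109), 99.3 (93.7 to 105) and 153 (142 to 164) on the same days. The first days overlapped and day 14 was 1.48-fold above day 4 (1.35 to 1.62), short of a call. *Cpt1a*, at the mitochondrial gate, had the same shape at a smaller size, with 49.2 CPM (45.4 to 53.2), 45.2 (41.4 to 49.2) and 67.6 (60.8 to 75.0), and a ratio of 1.37 between day 14 and day 4. *Hadha*, of the trifunctional protein, stood at 122 CPM (116 to 128), 136 (129.6 to 143) and 130.2 (121 to 140.2), and its ratio between day 14 and day 4 was 1.07 (0.976 to 1.17). The share of cells with at least 1 UMI, after each cell was thinned to 1500 UMIs, was 11.1%, 16.6% and 26.3% for *Acadl* on days 4, 7 and 14, and 25.1%, 38.4% and 49.2% before thinning. Thinned shares were 15.2%, 13.7% and 20.3% for *Acadm*, 6.47%, 6.83% and 9.19% for *Cpt1a* and 17.0%, 18.9% and 18.0% for *Hadha*. No cell type present is known to lack these genes, so no share that free RNA alone would give can be set beside them. Thinning left out the 753, 429 and 179 cells that held fewer than 1500 UMIs.

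The lipase and its inhibitor did not share a course. *Lpl* stood at 99.2 CPM (93.7 to 105) on day 4, 26.7 (23.8 to 29.8) on day 7 and 22.7 (18.9 to 27.2) on day 14. The level was 3.72-fold lower on day 7 than on day 4 (3.28 to 4.22), and between day 14 and day 7 the ratio was 0.852 with an interval that spans 1 (0.685 to 1.05). *Angptl4*, the secreted inhibitor of the lipase, stood at 52.6 CPM (48.7 to 56.8), 129 (123 to 136) and 28.2 (23.8 to 33.1). It was 2.46-fold higher on day 7 than on day 4 (2.24 to 2.70) and 4.59-fold lower on day 14 than on day 7 (3.88 to 5.47). The thinned share of cells with a UMI was 12.9%, 3.62% and 3.15% for *Lpl* and 7.05%, 14.6% and 3.02% for *Angptl4* (unthinned, 24.0%, 10.0% and 7.50%, and 14.1%, 29.9% and 10.7%). Of the partners of the lipase, *Gpihbp1*, which anchors it to capillary endothelium, had 1, 0 and 0 UMIs, and *Lmf1*, a chaperone needed for its maturation, stood at 16.4, 21.9 and 32.9 CPM.

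*Fabp5*, the fatty acid binding protein of the set, stood at 282 CPM (272 to 291) on day 4, 123 (117 to 129) on day 7 and 34.7 (29.9 to 40.1) on day 14. Each day was at least 2-fold below the one before, by 2.29-fold (2.15 to 2.44) and then 3.54-fold (3.03 to 4.15), and the thinned share of cells with a UMI went from 30.1% to 14.7% and 3.40% (unthinned, 47.5%, 32.6% and 8.43%). Part of the day 14 level came from very few cells: 3 cells with between 36 and 1118 UMIs of the 10 macrophage markers, against at most 2 in any other day 14 cell, held 76 of the 185 *Fabp5* UMIs (41.1%). Without them *Fabp5* stood at 20.6 CPM (16.9 to 24.8) on day 14. The same kind of cell held 3.87% of the day 7 UMIs of *Lpl* (3 cells) and 3.86% of the day 14 UMIs of *Plin2*. Without such cells every member level by day other than that of *Fabp5* on day 14 changed by less than its counting error.

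Both *Plin2* and *Mgll* were highest on day 7. *Plin2*, the droplet coat protein, stood at 49.4 CPM (45.6 to 53.4) on day 4, 80.4 (75.3 to 85.7) on day 7 and 48.6 (42.9 to 54.9) on day 14. Day 7 lay above both other days beyond counting error, 1.63-fold above day 4 (1.47 to 1.80), while days 4 and 14 overlapped. *Mgll*, the monoacylglycerol lipase, stood at 70.5 CPM (66.0 to 75.3), 285 (275 to 295) and 4.32 (2.74 to 6.48), from 894, 3313 and 23 UMIs. It was 4.04-fold higher on day 7 than on day 4 (3.75 to 4.35) and 66.0-fold lower on day 14 than on day 7 (43.9 to 104), and no other member moved as far in any comparison of days. The thinned share of cells with an *Mgll* UMI was 8.22%, 26.8% and 0.504% (unthinned, 16.4%, 43.7% and 1.95%), and that of *Plin2* 6.69%, 10.2% and 6.68% (unthinned, 16.2%, 28.1% and 19.9%).

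Each day was dominated by other cells. Cells were clustered on genes that exclude the 9 members and the pathway lists below, and clusters were named by marker genes. Of the day 4 cells, 75.0% were differentiating myofibroblast-like and 13.4% proliferating progenitor-like, of the day 7 cells 58.8% were ECM myofibroblast-like (extracellular matrix genes), 13.2% interstitial progenitor-like and 12.2% proliferating progenitor-like, and of the day 14 cells 55.0% were differentiating Leydig-like and 42.2% Leydig-like. The name differentiating myofibroblast-like depended on the clustering: 2236 day 4 cells had it here, and between 745 (10 components) and 2232 (called doublets left out) under other settings. With 10 and 30 components, 874 and 749 day 4 cells were named macrophage, although only 1 day 4 cell held at least 10 UMIs of the macrophage markers. The name interstitial progenitor-like is weak: its cluster was led by *Eln*, *Entpd2* and *Mfap2*, which are not among its markers. Only 7 of its 12 markers passed the naming rule, and its second-ranked name was differentiating Leydig. The markers come from the study's own clusters of these libraries, which also list *Mgll*, *Angptl4*, *Fabp5* and *Acadl* as markers of a state, so the state patterns of those members are a description and no independent evidence. The unnamed cells (218, 236 and 8 on days 4, 7 and 14) include a cluster led by *Lyz2*, *Prm1* and *Tnp1*, genes of macrophages and germ cells. That cluster (204 day 4 and 233 day 7 cells) also had *Ccne2*, *Hells* and *Rrm2* among its leading genes, and its second-ranked name was proliferating progenitor. At resolution 1.2 a cluster led by *Lyz2* and *Prm1* held 30 day 4 and 19 day 7 cells. Apart from it, a cluster led by *Ccne2* and *Hells* (178 day 4 and 217 day 7 cells) was named proliferating progenitor-like. The proliferating progenitor-like cells described here may therefore be only part of that state.

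**Figure D2:**
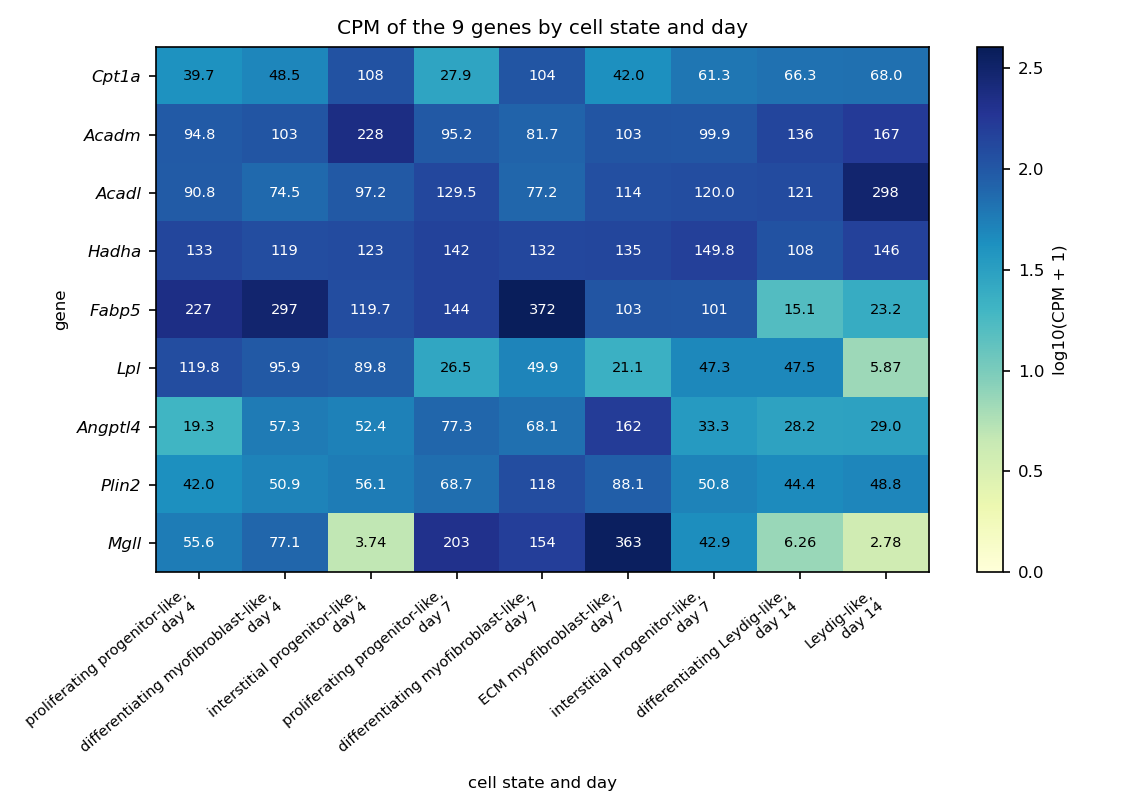
CPM of each of the 9 genes (vertical axis) in the 9 groups of at least 50 cells of a state on a day (horizontal axis). The colour scale is log10(CPM + 1) and each cell prints the CPM. *Mgll* and *Angptl4* were highest in the ECM myofibroblast-like cells of day 7 (363 and 162 CPM), and *Acadl* in the Leydig-like cells of day 14 (298 CPM).

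*Mgll* stood at 363 CPM (349 to 377) in the ECM myofibroblast-like cells of day 7, 203 (180.3 to 228) in the proliferating progenitor-like cells and 154 (107 to 216) in the 68 differentiating myofibroblast-like cells of that day. On day 4 it stood at 77.1 CPM (71.5 to 82.9) in differentiating myofibroblast-like and 55.6 (45.2 to 67.8) in proliferating progenitor-like cells, and on day 14 at 6.26 (3.24 to 10.9) in differentiating Leydig-like and 2.78 (1.27 to 5.28) in Leydig-like cells. The states of day 7 other than the interstitial progenitor-like cells were therefore above every state of day 4, and every state of day 7 was above both Leydig states. The interstitial progenitor-like cells were low beside their own day, with 1 UMI in 90 cells on day 4 (3.74 CPM, 0.0947 to 20.8) and 42.9 CPM (31.8 to 56.8) on day 7, which was 8.45-fold below the ECM myofibroblast-like cells (6.37 to 11.5). The thinned share of cells with a UMI was 34.5% in ECM myofibroblast-like, 21.9% in proliferating progenitor-like and 5.66% in interstitial progenitor-like cells of day 7.

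*Angptl4* stood at 162 CPM (153 to 172) in the ECM myofibroblast-like cells of day 7, above the next groups in order, proliferating progenitor-like (77.3, 63.4 to 93.3) and differentiating myofibroblast-like cells of that day (68.1, 38.1 to 112). It was lowest in the proliferating progenitor-like cells of day 4, at 19.3 CPM (13.4 to 27.0), which was 2.97-fold below the 57.3 CPM of the differentiating myofibroblast-like cells of that day (2.10 to 4.33). Interstitial progenitor-like cells of day 7 stood at 33.3 CPM (23.6 to 45.7), 4.87-fold below the ECM myofibroblast-like cells (3.53 to 6.92), and the Leydig states at 28.2 and 29.0 CPM. Between neighbours in this order only the step below the ECM myofibroblast-like cells exceeded counting error.

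*Lpl* went the other way between these states. It stood at 47.3 CPM (35.5 to 61.7) in the interstitial progenitor-like cells of day 7, 2.25-fold above the 21.1 CPM (17.9 to 24.6) of the ECM myofibroblast-like cells (1.62 to 3.08). On day 14 it stood at 47.5 CPM (38.2 to 58.3) in differentiating Leydig-like cells and 5.87 (3.53 to 9.17) in Leydig-like cells, from 91 and 19 UMIs. The Leydig-like cells were thus 8.09-fold lower (4.90 to 14.1), and 0.504% of them held a UMI after thinning, against 5.59% of differentiating Leydig-like cells. The highest levels were those of day 4, at 119.8 CPM (104 to 137) in proliferating progenitor-like, 95.9 (89.7 to 102) in differentiating myofibroblast-like and 89.8 (57.5 to 134) in interstitial progenitor-like cells.

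*Acadl* stood at 298 CPM (279.6 to 318) in the Leydig-like cells of day 14. The 8 other groups of a named state with at least 50 cells lay between 74.5 and 129.5 CPM. The unnamed cells stood at 138 CPM (118 to 160.0) on day 4 and 156 (136 to 179) on day 7. The differentiating Leydig-like cells of the same library stood at 121 CPM (106 to 137), so the ratio was 2.47 (2.14 to 2.87), and the thinned share of cells with a UMI was 34.3% against 18.6%. The median UMI count was 5584 per Leydig-like cell and 2205 per differentiating Leydig-like cell, and the log2 ratio of 1.30 stayed between 1.01 and 1.38 under the alternative settings, thinning included. *Hadha* (146 against 108 CPM, ratio 1.36, 1.15 to 1.61) and *Acadm* (167 against 136 CPM, ratio 1.23, 1.06 to 1.44) differed less, and *Cpt1a* (68.0 against 66.3 CPM) overlapped. *Acadm* was highest in the interstitial progenitor-like cells of day 4, at 228 CPM (174 to 293) from 61 UMIs, as was *Cpt1a*, at 108 CPM (72.6 to 156) from 29 UMIs. That *Acadm* interval overlapped the one of the Leydig-like cells of day 14 (154 to 182). For *Cpt1a*, *Hadha* and *Plin2* all neighbours in the order of the 9 groups overlapped.

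*Fabp5* stood at 372 CPM (296 to 462) in the 68 differentiating myofibroblast-like cells of day 7 and 297 (286 to 308) in the 2236 such cells of day 4, against 103 (95.9 to 111) in the ECM myofibroblast-like cells of day 7. It was lowest in the differentiating Leydig-like (15.1, 10.1 to 21.7) and Leydig-like cells (23.2, 18.2 to 29.0) of day 14. The differentiating myofibroblast-like cells of day 7 were therefore not below those of day 4. These 68 cells lay in clusters 0, 1 and 3 (21, 39 and 8 cells), beside 795, 774 and 667 cells of day 4. They were thus grouped by their likeness to day 4 cells. Cluster 1 also held more *Fabp5* on day 4, at 375 CPM against 264 and 316 in clusters 0 and 3. *Plin2* ranged from 42.0 CPM in the proliferating progenitor-like cells of day 4 to 118 (77.1 to 173) in the differentiating myofibroblast-like cells of day 7, the latter from 26 UMIs, and stood at 44.4 and 48.8 CPM in the 2 Leydig states.

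Of the 9 genes, 0 were called higher and 1 lower (*Angptl4*) between proliferating progenitor-like and differentiating myofibroblast-like cells on day 4, beside 6.04% and 5.59% of 11330 genes. Under other settings that log2 ratio of -1.52 ranged from -1.94 to -0.69, and 5 other clusterings lost the call. Between proliferating progenitor-like and ECM myofibroblast-like cells on day 7, 0 were called higher and 1 lower (*Angptl4*, 2.10-fold, 1.72 to 2.58), beside 6.21% and 6.93% of 11160 genes, and most other clusterings of the cells lost that call. Between Leydig-like and differentiating Leydig-like cells on day 14, 1 was called higher (*Acadl*) and 2 lower, beside 4.76% and 6.88% of 10230 genes. The lower ones were *Lpl* and *Mgll*, and the interval of the latter's ratio, from 9 and 12 UMIs, spans 1 (0.444, 0.165 to 1.15). Between interstitial progenitor-like and ECM myofibroblast-like cells on day 7, a comparison added after the values were seen, 1 was called higher (*Lpl*) and 2 lower (*Mgll* and *Angptl4*), beside 6.73% and 7.87% of 11073 genes. The median log2 ratio of the 9 genes in these comparisons was -0.27, -0.11, 0.13 and -0.03, that of all genes -0.01, -0.01, -0.05 and -0.02. On day 7, 30 cells were differentiating Leydig-like, too few for the comparison planned with ECM myofibroblast-like cells. The names of the day 7 cells also depended on the clustering. At resolution 1.2, after the stricter cell filter with new clusters, and with a state given to each cell by itself, 266, 185 and 360 day 7 cells were differentiating Leydig-like and 39, 0 and 0 interstitial progenitor-like. Set against ECM myofibroblast-like cells, those differentiating Leydig-like cells had CPM ratios of 0.122, 0.119 and 0.132 for *Mgll* and 0.212, 0.234 and 0.338 for *Angptl4*. How many of them were the cells named interstitial progenitor-like above was not counted.

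**Figure D3:**
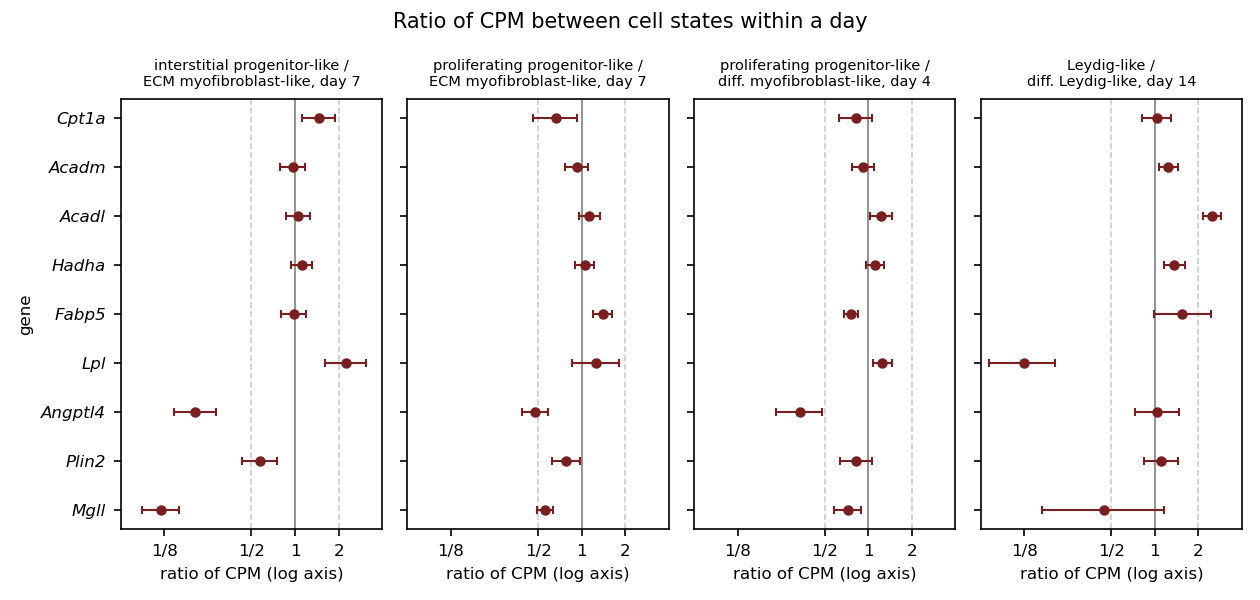
Ratio of CPM between 2 cell states of the same day (horizontal axis, logarithmic) for each of the 9 genes (vertical axis), in 4 comparisons. Points are ratios, bars the exact interval for counting error, the solid line is a ratio of 1 and dashed lines mark 2-fold. *Mgll* and *Angptl4* lie left of the lower dashed line in the interstitial progenitor-like cells of day 7 (8.45-fold and 4.87-fold lower), and *Lpl* in the Leydig-like cells of day 14 (8.09-fold lower).

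Within the proliferating progenitor-like cells, 400 on day 4 and 264 on day 7, some of the same genes still differed by day. In them *Mgll* stood at 55.6 and 203 CPM and *Angptl4* at 19.3 and 77.3 CPM on days 4 and 7, and their intervals did not overlap. *Lpl* stood at 119.8 and 26.5 CPM and *Fabp5* at 227 and 144 CPM, again without overlap. *Plin2* stood at 42.0 and 68.7 CPM, and *Acadl* at 90.8 and 129.5 CPM (77.3 to 106 and 111 to 149.8). *Acadm* (94.8 and 95.2 CPM), *Hadha* (133 and 142 CPM) and *Cpt1a* (39.7 and 27.9 CPM) overlapped between the days. In other states only part of this held. *Mgll* was higher on day 7 without overlap in interstitial progenitor-like (3.74 CPM, from 1 UMI, and 42.9 CPM) and differentiating myofibroblast-like cells (77.1 and 154 CPM). *Lpl* was lower in differentiating myofibroblast-like cells, at 95.9 (89.7 to 102) and 49.9 CPM (24.9 to 89.3). The latter rested on 11 UMIs, and the intervals only just missed each other. *Lpl* overlapped in interstitial progenitor-like cells (89.8 and 47.3 CPM). *Angptl4* overlapped between days 4 and 7 in interstitial progenitor-like cells (52.4 and 33.3 CPM) and in differentiating myofibroblast-like cells (57.3 and 68.1 CPM). *Fabp5* overlapped in interstitial progenitor-like cells (119.7 and 101 CPM) and was not lower on day 7 in differentiating myofibroblast-like cells (297 and 372 CPM). The day 7 cells of the latter state lay in clusters made mostly of day 4 cells. At resolution 1.2 the name interstitial progenitor-like went to a cluster of 85 day 4 and 39 day 7 cells led by *Hpgd*, *Chrdl1* and *Ogn*. A cluster led by *Eln*, *Mfap4* and *Fmod* held 2 day 4 and 238 day 7 cells there. The interstitial progenitor-like cells of days 4 and 7 may thus be largely different cells.

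Cells that carried the same name on the same day also differed in the lipase pair and *Mgll*. The differentiating myofibroblast-like cells of day 4 fell into 3 clusters, and clusters 0 and 3 (795 and 667 day 4 cells, median 4926.5 and 4032 UMIs over all days) were compared after their values had been seen. Cluster 3, with *Hbegf*, *Ankrd1* and *Ptgs2* among its leading genes, held *Mgll* at 120.4 CPM (109 to 132) and *Angptl4* at 89.6 CPM (80.1 to 99.9), against 45.7 (39.8 to 52.4) and 38.3 CPM (32.9 to 44.4) in cluster 0, led by *Ifit3*, *Ifitm1* and *F3*. The ratios were 2.63 (2.23 to 3.12) and 2.34 (1.94 to 2.82). *Lpl* stood at 59.1 CPM (51.4 to 67.5) in cluster 3 and 116 (106 to 126) in cluster 0, a ratio of 0.509 (0.432 to 0.597), just short of a call, and *Plin2* at 63.5 and 40.5 CPM (ratio 1.57, 1.29 to 1.91). *Acadm* (104 and 103 CPM) and *Acadl* (73.6 and 73.8 CPM) did not differ beyond counting error, with intervals of the ratio from 0.878 to 1.16 and from 0.847 to 1.17. In that comparison 2 of the 9 genes were called higher and 0 lower, beside 2.06% and 5.33% of 10769 genes.

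Cluster 1, the remaining differentiating myofibroblast-like cluster (774 day 4 cells), was shallow at a median of 1241 UMIs per cell. Against clusters 0 and 3 together *Angptl4* was called lower there (29.0 against 61.0 CPM, 2.11-fold, 1.47 to 3.13), the only call among the 9 genes, beside 1.28% of genes higher and 5.35% lower. *Lpl* stood at 134 against 90.9 CPM (ratio 1.48, 1.23 to 1.77), a log2 ratio of 0.56 that was 0.04 after each cell was thinned to 1500 UMIs. Thinning left out cells under 1500 UMIs, a depth above the median of cluster 1. The value of 0.04 therefore describes only its deeper cells, and whether depth made the difference was not tested. Among ECM myofibroblast-like cells of day 7, the deep cluster 6 (560 cells) held *Mgll* at 387 CPM (371 to 404) and *Angptl4* at 178 CPM, and the shallow cluster 2 (678 cells) 286 (260.2 to 313) and 102 CPM. No member was called between them (0 higher and 0 lower, beside 3.56% and 0.709% of genes), with ratios of 1.35 for *Mgll*, 1.75 (1.49 to 2.08) for *Angptl4* and 0.600 (0.514 to 0.702) for *Fabp5* (90.0 against 149.9 CPM). Both clusters thus held *Mgll* far above the 42.9 CPM of the interstitial progenitor-like cells of that day.

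The wider pathway was followed in 8 lists of 99 genes that hold none of the 9 members. Between day 14 and day 4, 29 of the 85 list genes tested were called higher and 2 lower, beside 16.3% and 17.6% of all genes. Of 19 tested genes of the carnitine shuttle and mitochondrial beta-oxidation, 8 rose and 0 fell (median log2 ratio 0.76), led by *Acaa2*, the mitochondrial 3-ketoacyl-CoA thiolase, at 42.0, 54.5 and 563 CPM on days 4, 7 and 14 (13.4-fold, 12.2 to 14.7), and *Hadh*, the short-chain hydroxyacyl-CoA dehydrogenase, at 22.5, 39.4 and 116 CPM. Of 12 tested genes of uptake, activation and binding, 5 rose and 1 fell (median 0.20). *Fabp3*, another cytosolic fatty acid binding protein, went from 9.31 to 22.0 and 769 CPM (82.6-fold between days 14 and 4, 68.8 to 100.1) while *Fabp5* went from 282 to 34.7, and the fatty acid transporter *Cd36* went from 0.710 to 0.602 and 17.1 CPM, from 9, 7 and 91 UMIs. *Slc27a3* fell, at 7.57, 5.93 and 2.44 CPM. These lists were chosen with earlier results of these libraries known, and their counts are a description.

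Of 11 tested triglyceride synthesis and droplet genes 3 rose and 0 fell (median 0.79), among them the seipin gene *Bscl2* (46.2, 78.3 and 264 CPM) and *Plin1* (1.26, 1.38 and 11.1 CPM). *Plin1* is a droplet coat protein known from adipocytes and steroid-making cells, and is itself on the adipocyte marker list, whose day 14 sum was 3.01 CPM without it. Of 6 lipolysis genes 2 rose and 0 fell (median 0.51): *Abhd6*, another monoacylglycerol hydrolase, at 20.4, 25.5 and 80.6 CPM, and *G0s2*, an inhibitor of the triglyceride lipase ATGL, at 21.6, 40.5 and 80.0 CPM. Thus *Abhd6* was higher on day 14 while *Mgll* was lower. Of 9 peroxisomal genes 2 rose and 0 fell (median 0.56), among them *Acox3* (3.94, 8.43 and 26.1 CPM), and of 13 genes of fatty acid synthesis and desaturation 5 rose and 0 fell (median 0.76), led by the elongase *Elovl5* (69.5, 62.0 and 242 CPM) and the mitochondrial citrate carrier *Slc25a1* (75.4, 117 and 172 CPM). Of 8 regulators 1 rose and 1 fell (median 0.17): *Ppara* stood at 0.473, 0.774 and 6.39 CPM, and the hormone gene *Fgf21* had 94, 26 and 0 UMIs. On day 14, 3 UMIs would be 0.563 CPM. These counts between day 14 and day 4 stand beside 16.3% of all genes called higher and 17.6% lower, and several lists are near those shares. Between day 7 and day 4, 2 of 83 list genes rose and 1 fell, beside 5.39% and 4.33% of all genes. Between day 14 and day 7, 24 of 83 rose and 3 fell, beside 12.4% and 16.6%.

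**Figure D4:**
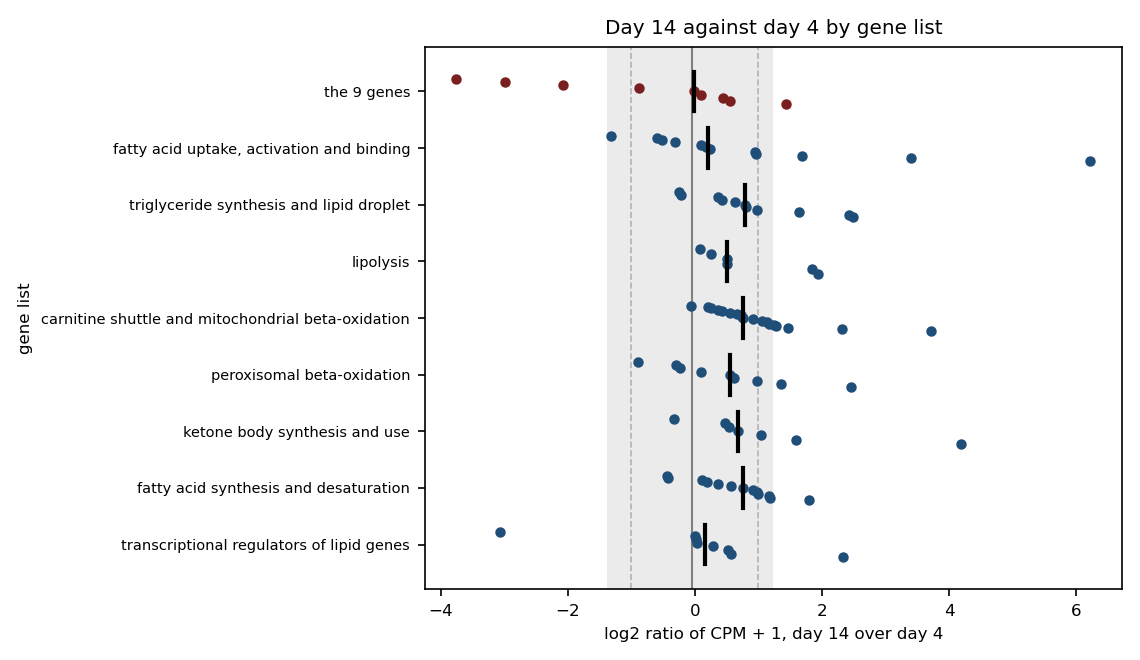
Log2 ratio of CPM + 1 between day 14 and day 4 (horizontal axis) for the 9 genes and for the tested genes of 8 pathway lists (vertical axis), 1 point per gene. Black bars are list medians, the grey band runs from the 10th to the 90th percentile of all genes (-1.37 to 1.22), the grey line is their median and dashed lines mark 2-fold. The median of the 9 genes is -0.02, and that of the mitochondrial beta-oxidation list 0.76.

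Of the 7 genes of ketone body synthesis and use, none of them a member, 3 rose and 0 fell between day 4 and day 14 (median 0.68). Of all genes 16.3% were called higher and 17.6% lower. *Acat1*, the mitochondrial acetoacetyl-CoA thiolase, stood at 255 CPM on day 4, 223 on day 7 and 524 on day 14 (2.06-fold higher on day 14 than on day 4, 1.95 to 2.16). The monocarboxylate transporter *Slc16a1* stood at 15.8, 16.9 and 49.6 CPM (3.14-fold, 2.61 to 3.80). The hydroxybutyrate dehydrogenase *Bdh1* had 19, 12 and 14 UMIs, *Bdh2* stood at 49.7, 47.6 and 69.9 CPM, and *Oxct1*, which uses ketone bodies as fuel, at 318, 288 and 254 CPM (ratio 0.801, 0.753 to 0.852). On day 4 the 90 interstitial progenitor-like cells, in which *Acadm* and *Cpt1a* stood highest with intervals that overlapped the next group, held *Acaa2* at 266 CPM (207 to 335) against 36.0 (32.3 to 40.1) in differentiating myofibroblast-like cells, and *Fabp3* at 146 CPM (104 to 199) against 6.77 (5.20 to 8.67).

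Between Leydig-like and differentiating Leydig-like cells 11 of 75 list genes were called higher and 1 lower, beside 4.76% and 6.88% of all genes. *Fabp3* stood at 1116 against 243 CPM (4.60-fold, 4.17 to 5.07), *Cd36* at 25.3 against 4.70 CPM, *Acaa2* at 737 against 301 CPM (2.45-fold, 2.23 to 2.69) and *Etfdh*, which passes electrons from acyl-CoA dehydrogenases to the respiratory chain, at 82.5 against 40.2 CPM. The desaturase genes *Fads2* and *Fads1* stood at 98.5 against 15.7 and 234 against 73.6 CPM, the acyltransferase gene *Gpam* at 12.4 against 2.09 CPM, *Slc16a1* at 62.1 against 30.8 CPM and *Ppara* at 8.65 against 3.13 CPM. *G0s2* was lower, at 56.5 against 121 CPM. *Acadl* was the member of the 9 that was called higher in the same cells. In the other comparisons of states, 1 of 75 list genes was called higher and 6 lower (proliferating progenitor-like against differentiating myofibroblast-like, day 4), beside 6.04% and 5.59% of all genes, and 0 of 75 were higher and 4 lower (proliferating progenitor-like against ECM myofibroblast-like, day 7), beside 6.21% and 6.93%. Between interstitial progenitor-like and ECM myofibroblast-like cells on day 7, 6 of 77 were higher and 4 lower, beside 6.73% and 7.87%.

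Across the 9 groups of a state on a day with at least 50 cells, which share 3 libraries and their depth, the genes with the most similar log2(CPM + 1) among 6180 genes were, for *Mgll*, *Anxa8* (Pearson's r = 0.996), *Asns* (0.986) and *Rars* (0.982), for *Lpl*, *Fgf7* (0.969), *Zeb1* and *Rbpms* (0.960 each), and for *Fabp5*, *Ifi47* (0.976), *Uqcrb* (0.970) and *Tnfaip1* (0.968). For *Acadl* they were *Lonp1* (0.950), *Ebp* (0.946) and *Nop10* (0.944), for *Angptl4*, *Txndc17* (0.918), *Msrb1* (0.913) and *Spag9* (0.885), and for *Acadm*, *Sqrdl* (0.956), *Akip1* (0.944) and *Vsig10* (0.938). For *Cpt1a* they were *Lzts2* (0.943), *Tnip2* (0.928) and *Acaa1a* (0.927), for *Plin2*, *Csnk2b* (0.946), *Brox* (0.935) and *Serpinb6a* (0.932), and for *Hadha*, *Sdccag3* (0.895), *Fbxo3* (0.872) and *Vapa* (0.815). These are the highest of 6180 correlations over 9 groups, so high values can come from the choice alone. For *Cpt1a*, *Hadha* and *Plin2* the levels matched also overlapped between all neighbouring groups in their order. Among the members themselves the correlation was highest for *Angptl4* with *Plin2* (0.77), *Fabp5* with *Mgll* (0.66) and *Angptl4* with *Mgll* (0.64), and lowest for *Acadl* with *Lpl* (-0.88) and *Acadm* with *Mgll* (-0.85).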

How the data were processed

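Drop-seq UMI counts of 3 libraries (days 4, 7 and 14, 1 each, sequenced in the same batch) were used. The deposited counts are whole UMIs per gene and cell, not normalized, made by the authors with Drop-seq tools and aligned to GRCm38. The submitters' processing notes name STAR 2.5.2a, Picard 2.6.0 and SAMtools 1.2; the study's methods name another STAR version, and which of them made these counts is not given in the sources used here. The annotation release and the use of strand are not given in the sources used here.

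The merged table, from which 495 columns that matched no sample were not used, held, on the days used, no cell under 500 genes or over 10% mitochondrial UMIs, and its entries equalled those of the tables per day. Cells were clustered with Seurat 5.3.0 (R 4.3.3) on 2000 variable genes, 20 components, 20 neighbours and Louvain resolution 0.8, leaving out the members and pathway lists (108 genes). A cluster was named where at least 3 markers with at least 10 UMIs were at least 1.5 times the other cells. A rule added after the clusters were seen left a cluster led by genes of another cell type unnamed. UMIs were summed per day, state or cluster in Python 3.11.15 (numpy 2.4.6, scipy 1.17.1, pandas 2.3.3), with exact Poisson intervals for CPM and exact Clopper-Pearson intervals for shares and ratios. Log2 ratios used a pseudocount of 1 CPM. Scripts were tested on simulated data. Scrublet (scanpy 1.11.5) called 3 of 6124 cells and did not work as a doublet caller, so leaving out the 6% highest scores per library was added.

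Members and lists were chosen with earlier results of these data known. All members were named, and of the pathway lists all ketone body genes and up to 2 genes per list and direction with the greatest ratio past 2-fold; some of these are not reported here. Clusters within a state and interstitial progenitor-like cells were compared after their values were seen. Alternatives were other cell filters, doublets left out, equal weight per cell, thinning, centring on the median ratio, totals without mitochondrial and ribosomal protein genes, at least 100 UMIs, other clusterings, and a state for each cell by itself.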

Additional observations from a re-analysis of the deposited data

How the results depend on the processing

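Counting depth limits the rarest values: *Mgll* rested on 23 UMIs on day 14, and the log2 ratio of *Mgll* between Leydig-like and differentiating Leydig-like cells, -0.94, turned to 0.23 with 10 components. No paired analysis was possible because there is 1 library per day, and leaving out a replicate was not possible for the same reason. Of 356 alternative values of counts of called genes, 303 stayed within 1.5 times of the value reported and 53 did not; of 2321 values of single genes, 134 moved by more than counting error and 1 more, that of *Mgll*, was a called ratio that turned its direction (the cause was not tested). Ratios of members near 0 on the log2 scale, which were not called, also changed sign: *Hadha* between proliferating progenitor-like and ECM myofibroblast-like cells in 6 of 15 alternatives, *Cpt1a* and *Angptl4* between Leydig-like and differentiating Leydig-like cells in 5 and 4 of 13, and *Cpt1a* between day 7 and day 4 in 2 of 10. The called day ratios of members kept their direction in the 10 alternatives run: *Mgll* between day 14 and day 7 ranged from -6.23 to -5.62 (log2), *Fabp5* between day 14 and day 4 from -3.71 to -2.86, lowest without the cells rich in macrophage markers. Over 13 alternatives the log2 ratio of *Lpl* between Leydig-like and differentiating Leydig-like cells ranged from -3.41 to -2.62.

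Members called higher between day 14 and day 7 numbered 1 after centring on the median ratio. Members called lower between proliferating progenitor-like and differentiating myofibroblast-like cells on day 4 numbered 2 at resolution 0.4 and with 10 components, and 0 at resolution 1.2, with 30 components, with members and lists kept in the clustering, after the stricter filter with new clusters, and without called doublets. Against ECM myofibroblast-like cells on day 7 they numbered 0 with equal weight per cell, at resolutions 0.4 and 1.2, with 10 and 30 components, with members and lists kept, after the stricter filter with new clusters, without called doublets, and with a state for each cell by itself. Between Leydig-like and differentiating Leydig-like cells 1 member was lower with equal weight per cell, after thinning, at 100 UMIs, with 10 components and without the 6% highest doublet scores. Between clusters 3 and 0 on day 4, 1 member was lower without the 6% highest doublet scores.

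Pathway list genes called lower numbered 1 between day 14 and day 7 at 100 UMIs, and 1 between day 14 and day 4 with equal weight per cell, after thinning and at 100 UMIs. Between proliferating progenitor-like and differentiating myofibroblast-like cells on day 4, 0 were higher at 100 UMIs, after the stricter filter, at resolution 0.4 and without the 6% highest doublet scores. There 11 were lower after thinning, 1 at 100 UMIs, 2 with a state for each cell by itself, and 3 at resolutions 0.4 and 1.2, with 10 components, with members and lists kept, and without called doublets. Against ECM myofibroblast-like cells on day 7, 1 was higher with equal weight per cell and after thinning, and 0 were lower at 100 UMIs, 1 at resolution 1.2, after the stricter filter with new clusters and without called doublets, and 2 at resolution 0.4, with 30 components, with members and lists kept, and with a state for each cell by itself. Between Leydig-like and differentiating Leydig-like cells 6 were higher after thinning and 7 at 100 UMIs, 2 were lower after thinning and 0 with a state for each cell by itself. Leydig-like and differentiating Leydig-like cells could not be compared at resolution 0.4 or after the stricter filter with new clusters, nor interstitial progenitor-like with ECM myofibroblast-like cells at resolutions 0.4 and 1.2, after the stricter filter with new clusters, or with a state for each cell by itself.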
